A study of Mesocricetus auratus with 6 samples.

Results

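The receptor subunits for GABA, glycine and glutamate were examined in the brain and liver of Syrian hamsters (*Mesocricetus auratus*) with and without the *duper* mutation. Members were all genes whose symbol named a subunit of the GABA-A, GABA-B, glycine, AMPA, kainate, NMDA, delta or metabotropic glutamate (mGlu) receptors, and 50 of the 31593 genes in the files matched. RNA-seq was done on cortex, suprachiasmatic nucleus (SCN) and liver collected at CT15, that is circadian time 15, in the early subjective night. The *duper* group was 4 female hamsters that lack functional *Cry1*, and the wild-type (LVG) group was 2 male and 2 female hamsters. All animals were raised on 14 h of light and 10 h of dark. Each cortex and each SCN library was made from RNA mixed from the 4 animals of a group, and in liver the reads of 4 libraries were merged, which leaves 1 library or merged library per genotype and tissue, 6 in all. The same hamsters gave all 3 tissues, and since all *duper* animals were female, an effect of sex cannot be told apart from one of genotype.

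GABA and glycine open chloride channels built as pentamers of homologous subunits, and the choice of subunit sets where the channel sits, how long it stays open and which drugs bind it. Glutamate opens cation channels built as tetramers (AMPA, kainate and NMDA receptors), and both GABA and glutamate also act on slower G protein-coupled receptors. The SCN is the circadian pacemaker of the hypothalamus. Its neurons are mostly GABAergic, and light information reaches it as glutamate released by retinal fibres that act on AMPA and NMDA receptors.

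The total estimated count ranged from 6788947 in the wild-type cortex to 29936218 in the wild-type SCN among the brain libraries, and liver had 69839214 in wild type and 85748562 in *duper*. *Cry1* was at 33.3, 22.9 and 16.8 TPM, a level scaled for transcript length and library total, in wild-type cortex, SCN and liver and at 8.56, 8.14 and 5.44 TPM in *duper*. Of 6 SCN marker genes, 4 of the 5 with enough counts were higher in SCN than in cortex, and *Nms*, which encodes the SCN peptide neuromedin S, was at 0 TPM in both cortex libraries and at 33.5 and 13.4 TPM in the wild-type and *duper* SCN. The SCN peptide genes *Avp*, *Vip* and *Grp* were not analysed here. The 7 genes of cortical projection neurons summed to 1096 and 994 TPM in cortex and to 32.5 and 26.3 TPM in SCN. In the wild-type and *duper* SCN, 4 genes of neighbouring hypothalamus summed to 68.9 and 21.7 TPM, beside 83.9 and 49.2 TPM for the SCN markers. In cortex the neighbouring genes summed to 7.87 and 8.37 TPM. The summed TPM of 5 hepatocyte genes was 131330 and 136955 in liver.

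Levels of different genes can be compared in TPM. Where a pair of values is given for a tissue, wild type comes first and *duper* second. In cortex the 50 subunits summed to 3341 TPM for wild type and 3447 TPM for *duper*. In SCN they summed to 2012 and 2249 TPM, and in liver to 6.35 and 4.50 TPM. A level of at least 1 TPM was reached by 44 subunits in each cortex library, by 45 in the wild-type SCN and by 46 in the *duper* SCN. The highest member was *Gria2*, the AMPA subunit that limits calcium entry, in cortex, and *Gabbr1*, the ligand-binding subunit of the GABA-B receptor, in SCN. The plot of levels by library shows the brain libraries far to the right of liver for most subunits.

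**Figure D1:**
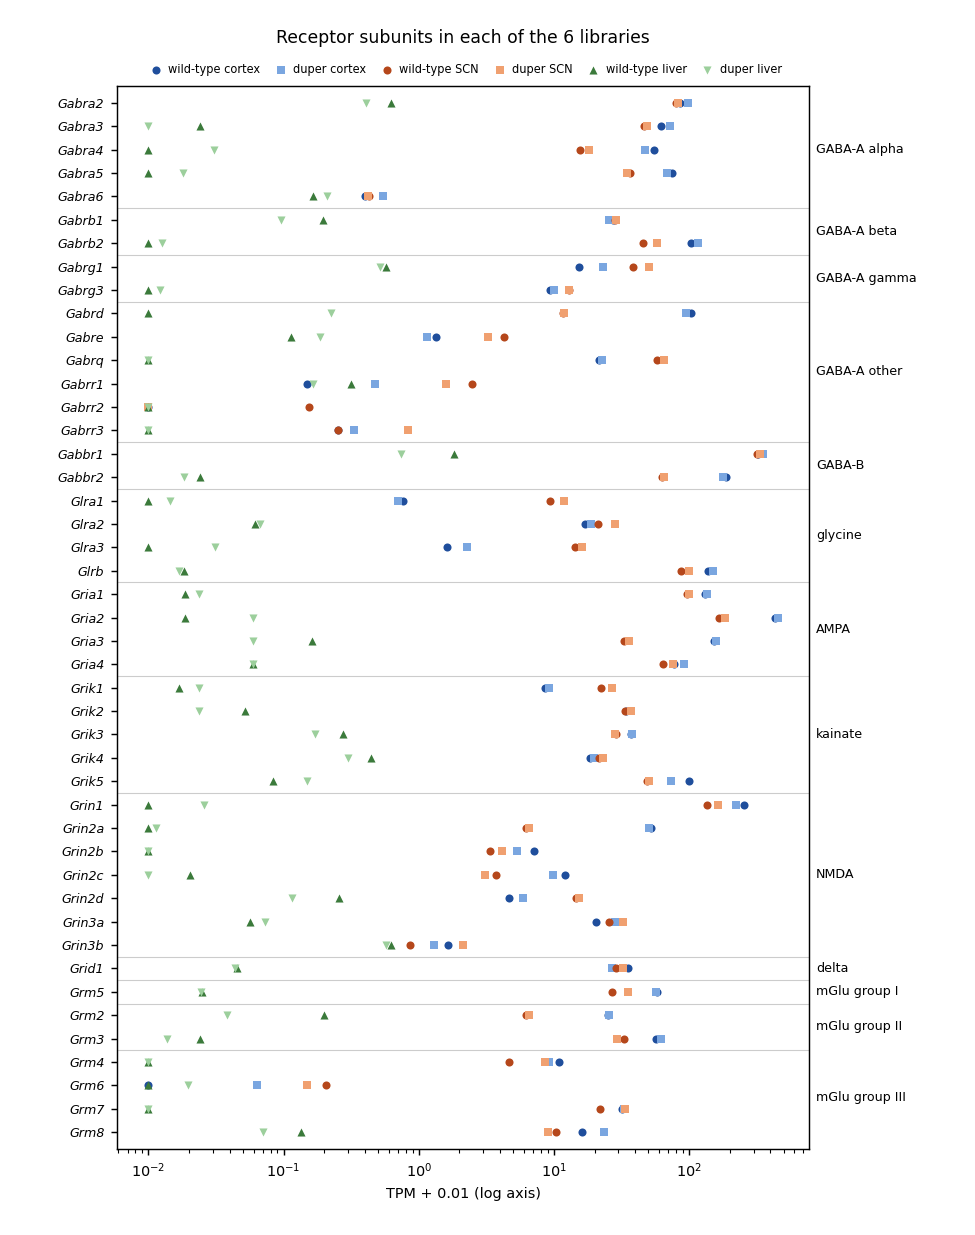
Level of 45 receptor subunits in the 6 libraries, as TPM + 0.01 on a log axis, grouped by receptor family. Each point is 1 library with no replicate, a value at the left end is 0 TPM, and *Gabbr1* in the wild-type liver, at 1.81 TPM, was the only subunit over 1 TPM in liver.

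The first comparison asked how the subunit mix of the SCN differed from that of cortex. The glycine receptor subunits *Glra1* and *Glra3*, the theta, epsilon, gamma1 and rho1 subunits of the GABA-A receptor, GluN2D and GluK1 were among the subunits higher in SCN. Of these, the results for epsilon and rho1 did not hold under every other processing choice. Among those tested, 7 of 15 GABA-A subunits, 2 of 4 AMPA subunits and 4 of 7 metabotropic glutamate receptors were lower, as was GluN2A. Rounded estimated counts of the 4 brain libraries were tested with edgeR's quasi-likelihood test, with terms for genotype and tissue, and the pools of the 2 genotypes stood in as replicates of a tissue. A gene was called where its log2 fold change exceeded 0.58 in either direction and its adjusted p (Benjamini-Hochberg) was under 0.05. Of 16903 genes tested, 9.28% were called higher and 11.7% lower in SCN. Of the 50 subunits 46 were tested, and 9 were called higher, 20 lower and 17 not called. Thus 63.0% of the tested subunits were called, against 21.0% of all genes tested. The median log2 fold change of SCN minus cortex was −0.41 over the 46 subunits and 0.02 over all genes tested. Scaling by library size in place of TMM (trimmed mean of M-values) raised the median of all genes by 0.17 on the log2 scale and moved the share of higher genes among all called genes from 44.3% to 62.8%, with 11 subunits then higher and 16 lower. The fit left 1 residual degree of freedom, so edgeR took most of each gene's spread from a spread shared across genes. With 2 pooled libraries per tissue the p-values rest on that shared spread between these pools, and they do not measure the spread between hamsters.

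**Figure D2:**
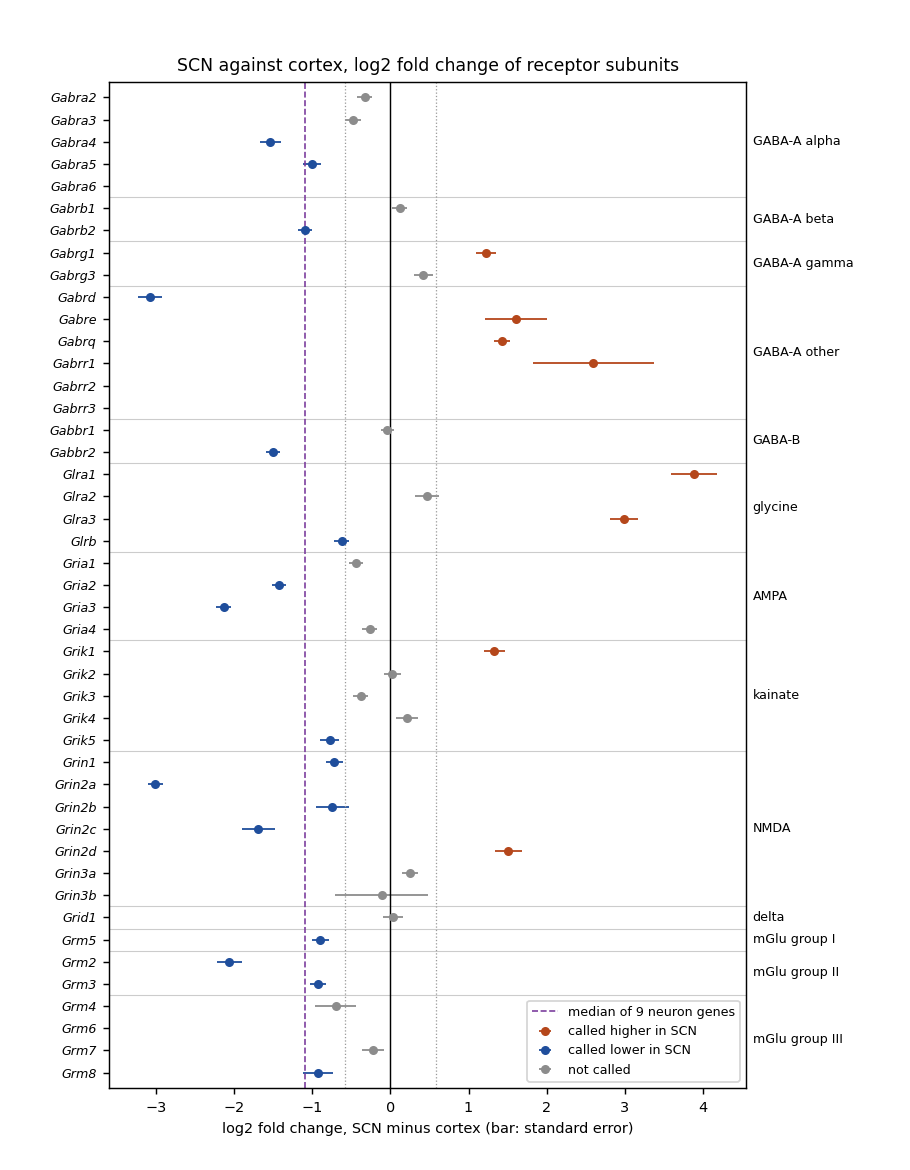
Log2 fold change of SCN minus cortex for 41 of the 46 subunits tested, with the standard error as a bar. Red points are 8 subunits called higher in SCN, blue points 17 called lower and grey points 16 not called; dotted lines mark the fold threshold of 0.58 and the dashed line the median of 9 neuron genes, −1.09.

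Of 15 GABA-A subunits tested, 4 were higher and 7 lower in SCN, beside 9.28% higher and 11.7% lower of all genes tested. The alpha subunits carry part of the GABA site and set drug sensitivity. *Gabra2* had 86.2 and 98.8 TPM in cortex and 80.7 and 83.3 TPM in SCN, a difference that did not reach the fold threshold (−0.33, SE 0.097). *Gabra4* fell from 55.2 and 47.0 TPM in cortex to 15.6 and 18.3 TPM in SCN (−1.54, SE 0.13), and *Gabra5* from 75.3 and 68.3 TPM to 36.7 and 34.6 TPM (−1.004, SE 0.12). Both encode subunits found largely outside synapses. *Gabra3* was not called, although it passed without the wild-type cortex, and *Gabra6*, known from cerebellar granule cells, was not tested, with 3 to 16 counts per brain library.

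The beta subunits are needed to bring the channel to the surface. *Gabrb2* had 103 and 117 TPM in cortex and 45.3 and 57.6 TPM in SCN (log2 fold change −1.10, SE 0.093). *Gabrb1* did not move with it: it had 27.5 and 25.5 TPM in cortex and 28.4 and 28.9 TPM in SCN and was not called.

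*Gabrg1* encodes a gamma subunit of lower benzodiazepine sensitivity. It had 15.3 and 23.2 TPM in cortex and 38.5 and 50.4 TPM in SCN (log2 fold change 1.23, SE 0.13). Both SCN libraries were above both cortex libraries. *Gabrg3*, another gamma subunit, was not called, although it passed under scaling by library size.

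*Gabrd* and *Gabrq* moved in opposite directions. *Gabrd* encodes the delta subunit, which replaces gamma in extrasynaptic receptors that carry tonic current. It had 104 and 94.4 TPM in cortex and 11.7 and 12.0 TPM in SCN (log2 fold change −3.08, SE 0.15, adjusted p = 2.56e-09 from edgeR), the largest fall of the 46 subunits in this fit. *Gabrq*, the theta subunit, had 21.7 and 22.6 TPM in cortex and 57.9 and 65.2 TPM in SCN (1.43, SE 0.10, adjusted p = 1.09e-07 from edgeR). Of the TPM of the delta, epsilon, theta and rho subunits together, *Gabrd* took 81.6% and 79.4% in cortex and 15.2% and 14.4% in SCN, and *Gabrq* 17.0% and 19.0% in cortex and 75.5% and 78.7% in SCN. In estimated counts, which are not corrected for transcript length, *Gabrd* took 52.6% and 49.5% in cortex and 4.53% and 4.24% in SCN, and *Gabrq* 45.6% and 48.5% in cortex and 89.8% and 91.8% in SCN. Epsilon and theta subunits are known from hypothalamus and brainstem. *Gabre*, the epsilon subunit, had 1.33 and 1.14 TPM in cortex and 4.265 and 3.265 TPM in SCN (1.61, SE 0.40). *Gabrr1*, a rho subunit best known from retina, had 0.140 and 0.466 TPM in cortex, from 1 and 5 counts, and 2.48 and 1.57 TPM in SCN, from 89 and 13 counts (2.60, SE 0.77). The calls of *Gabre* and *Gabrr1* ended with DESeq2, with all 6 libraries in the fit and without the wild-type SCN, and that of *Gabrr1* also without the wild-type cortex. Fits of SCN against cortex without a library also had no genotype term, and 1 tissue was then left with a single library of 1 genotype. *Gabrr1* was not tested with the libraries thinned to equal totals or with a minimum of 10 counts in every library. *Gabrr2* and *Gabrr3* were not tested, with at most 5 counts in any brain library.

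In the annotation of BCM_Maur_2.0, GABA-A genes stood near each other in groups as in other mammals, and neighbours shared a direction in some groups and not in others. *Gabrg1*, which was higher in SCN, stood in one group with *Gabra2* and *Gabrb1*, which were not called, and *Gabra4*, which was lower. *Gabre* and *Gabrq*, both higher in SCN, stood together with *Gabra3*, which was not called. *Gabrb2*, lower in SCN, stood with *Gabra6*, which was not tested, and *Gabra5*, also lower, with *Gabrg3*, which was not called.

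The GABA-B receptor works as a pair of *Gabbr1* and *Gabbr2* products, the first binding GABA and the second coupling to the G protein. *Gabbr1* had 323 and 352 TPM in cortex and 317 and 337 TPM in SCN and was not called (log2 fold change −0.04, SE 0.087). *Gabbr2* had 186 and 177 TPM in cortex and 62.6 and 65.7 TPM in SCN (−1.50, SE 0.093, adjusted p = 2.55e-08 from edgeR). *Gabbr1* was therefore 63.4% and 66.5% of the pair's TPM in cortex and 83.5% and 83.7% in SCN.

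The glycine receptor held the 2 largest rises in this fit. *Glra1*, the alpha subunit of mature spinal and brainstem receptors, had 0.752 and 0.692 TPM in cortex, from 10 and 14 counts, and 9.36 and 11.8 TPM in SCN, from 623 and 186 counts (log2 fold change 3.89, SE 0.30, adjusted p = 2.22e-07 from edgeR). *Glra3* had 1.62 and 2.25 TPM in cortex and 14.4 and 16.1 TPM in SCN (2.997, SE 0.18, adjusted p = 1.84e-08 from edgeR). Both rises were present in the pools of each genotype. *Glra2*, the alpha subunit of immature receptors, had 17.1 and 18.8 TPM in cortex and 21.4 and 28.3 TPM in SCN and was not called (0.47, SE 0.15), although it passed under scaling by library size (0.63) and without the wild-type SCN (0.66). *Glrb*, the beta subunit that ties the receptor to gephyrin, was lower in SCN, with 138 and 150 TPM in cortex and 86.4 and 99.7 TPM in SCN (−0.63, SE 0.093). The call of *Glrb* ended under scaling by library size (−0.46), without the wild-type SCN (−0.53) and with the libraries thinned to equal totals (−0.57). *Glrb* nonetheless remained the leading member, with 87.6% and 87.3% of glycine receptor TPM in cortex and 65.7% and 63.9% in SCN.

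AMPA receptors carry fast glutamate transmission, and their 4 subunits summed to 792 and 838 TPM in cortex and to 361 and 398 TPM in SCN. *Gria2* had 430 and 453 TPM in cortex and 168 and 186 TPM in SCN (log2 fold change −1.43, SE 0.089, adjusted p = 2.69e-08 from edgeR). *Gria3* had 153 and 158 TPM in cortex and 33.1 and 36.0 TPM in SCN (−2.14, SE 0.095, adjusted p = 1.04e-09 from edgeR). *Gria1* and *Gria4* did not reach the fold threshold. *Gria1* had 132 and 135 TPM in cortex and 95.9 and 99.6 TPM in SCN (−0.44, SE 0.089), and *Gria4* had 77.6 and 91.5 TPM in cortex and 64.5 and 76.4 TPM in SCN. *Gria2* was the leading subunit in both tissues, at 54.3% and 54.1% of AMPA subunit TPM in cortex and 46.5% and 46.7% in SCN.

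Kainate receptor subunits summed to 198 and 177 TPM in cortex and to 156 and 166 TPM in SCN. *Grik1*, which encodes GluK1, had 8.57 and 9.12 TPM in cortex and 22.4 and 27.1 TPM in SCN (log2 fold change 1.33, SE 0.13, adjusted p = 3.04e-06 from edgeR). *Grik5* encodes GluK5, a high-affinity subunit that needs a GluK1 to GluK3 partner. It had 99.7 and 73.1 TPM in cortex and 49.1 and 50.8 TPM in SCN (−0.78, SE 0.12), and its call ended with all 6 libraries in the fit and without the wild-type cortex. *Grik2* differed little, with 34.3 and 36.7 TPM in cortex and 33.8 and 37.4 TPM in SCN, and *Grik3* and *Grik4* were not called. *Grik1* was 4.3% and 5.2% of kainate subunit TPM in cortex and 14.4% and 16.3% in SCN.

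Every NMDA receptor contains GluN1, and its GluN2 subunits set the kinetics and the strength of magnesium block. *Grin1*, encoding GluN1, had 255 and 222 TPM in cortex and 136 and 164 TPM in SCN (log2 fold change −0.72, SE 0.11), and its call ended under scaling by library size and with all 6 libraries in the fit. *Grin2a*, encoding GluN2A, the subunit of fast mature receptors, had 52.2 and 50.6 TPM in cortex and 6.25 and 6.51 TPM in SCN (−3.01, SE 0.10, adjusted p = 1.11e-10 from edgeR). *Grin2d*, encoding GluN2D, whose receptors close slowly and are weakly blocked by magnesium, had 4.67 and 5.93 TPM in cortex and 14.6 and 15.4 TPM in SCN (1.51, SE 0.18, adjusted p = 1.40e-05 from edgeR). The libraries of the tissues did not overlap for either gene. *Grin2a* was 68.7% and 70.5% of the TPM of the 4 GluN2 genes in cortex and 22.4% in both SCN libraries, whereas *Grin2d* was 6.1% and 8.3% in cortex and 52.2% and 53.0% in SCN. In estimated counts *Grin2a* led in SCN too, at 44.3% and 43.9% against 34.4% and 34.7% for *Grin2d*, while in cortex they took 84.97% and 86.3% against 2.53% and 3.37%. *Grin2c* had 12.1 and 9.90 TPM in cortex and 3.71 and 3.07 TPM in SCN (−1.69, SE 0.21). *Grin2b*, named here after its values were seen, was low in all brain libraries, with 7.07 and 5.36 TPM in cortex and 3.36 and 4.09 TPM in SCN (−0.74, SE 0.21). Its call ended in 8 of 16 other fits, among them DESeq2, scaling by library size, all 6 libraries, limma on log2 TPM, thinning to equal totals and the fits without the wild-type cortex or the wild-type SCN. *Grin3a*, whose product lowers calcium entry, was not called, with 20.5 and 28.4 TPM in cortex and 25.5 and 32.2 TPM in SCN.

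The delta receptors bind cerebellins and organize synapses. *Grid1* had 35.5 and 27.0 TPM in cortex and 29.0 and 32.7 TPM in SCN and was not called (0.03, SE 0.13).

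No metabotropic glutamate receptor was higher in SCN, and 4 of the 7 tested were lower, beside 9.28% higher and 11.7% lower of all genes tested. In group I, which couples to Gq, *Grm5* had 57.9 and 56.6 TPM in cortex and 26.8 and 35.4 TPM in SCN (log2 fold change −0.90, SE 0.11). In group II, which couples to Gi, *Grm2* had 25.1 and 25.5 TPM in cortex and 6.16 and 6.48 TPM in SCN (−2.07, SE 0.16, adjusted p = 2.38e-07 from edgeR). *Grm3*, the group II receptor that astrocytes also carry, had 56.6 and 62.4 TPM in cortex and 32.7 and 29.4 TPM in SCN (−0.93, SE 0.11). In group III, *Grm8* had 16.1 and 23.6 TPM in cortex and 10.3 and 9.08 TPM in SCN (−0.93, SE 0.19), and its call ended with all 6 libraries in the fit. *Grm7* (−0.22, SE 0.14) and *Grm4* (−0.70, SE 0.26, adjusted p = 0.0548 from edgeR) were not called, although *Grm4* passed in 4 of 16 other fits (the likelihood ratio test, no filter, without the *duper* SCN and thinning), and *Grm6*, the receptor of retinal ON bipolar cells, was not tested, with at most 12 counts in a brain library.

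The plot of subunit mix shows these shares side by side. For the delta and theta subunits and for GluN2A and GluN2D the bars of both genotypes were nearly the same height within a tissue, and the tissues stood far apart. The pools of a tissue differed more in *Grik5*, at 50.3% of kainate subunit TPM in the wild-type and 41.4% in the *duper* cortex, and in *Grm8*, at 27.7% of group III TPM in the wild-type and 17.6% in the *duper* SCN. These shares describe RNA of whole tissue pieces, in which fewer cells of a type and less RNA per cell cannot be told apart.

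**Figure D3:**
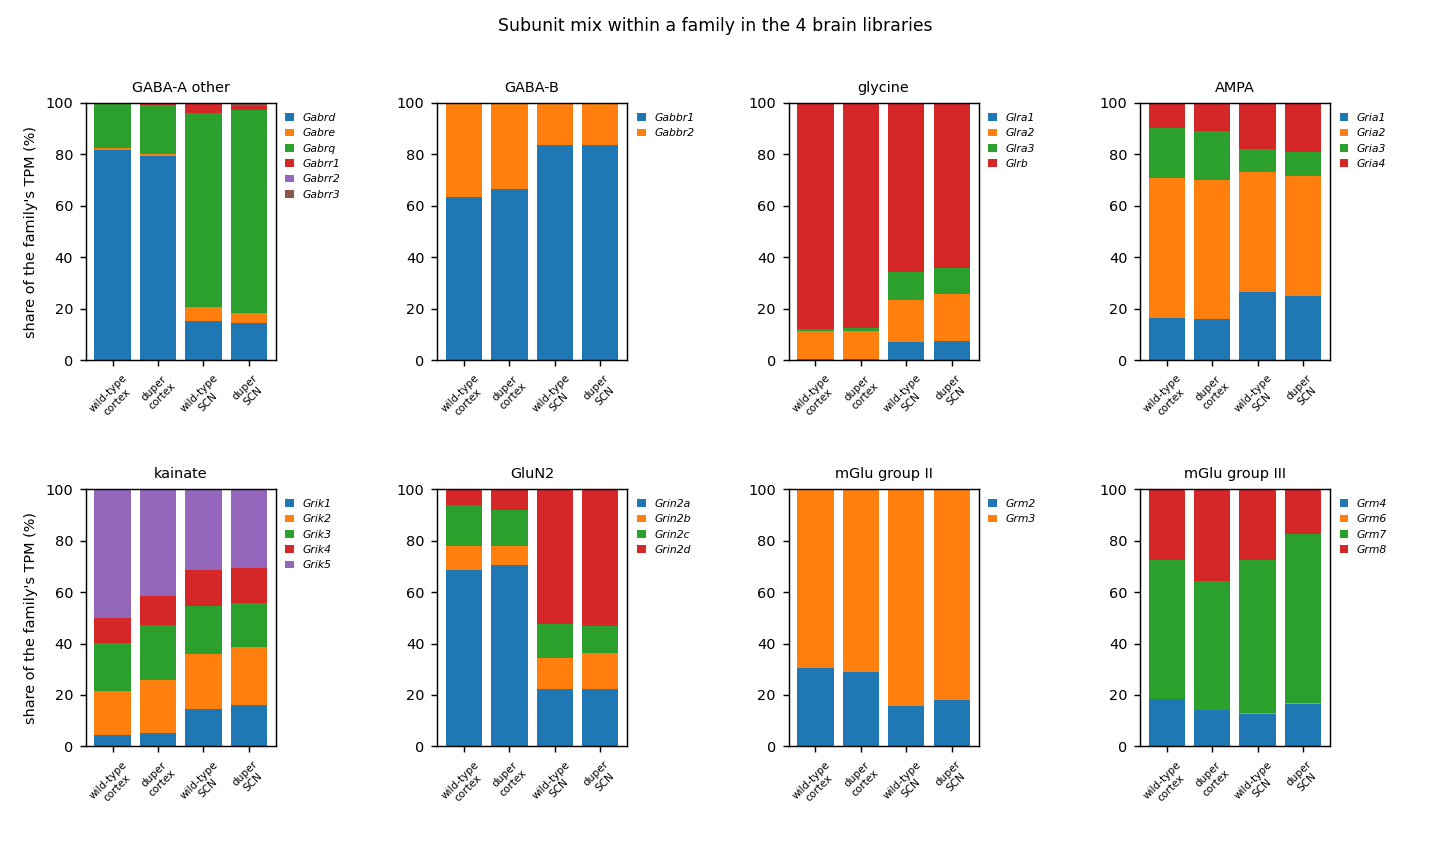
Share of each family's summed TPM taken by its subunits (percent) in the wild-type and *duper* cortex and SCN, for 8 families; each bar is 1 library. The bars differ between tissues for *Gabrd* and *Gabrq* among the other GABA-A subunits and for *Grin2a* and *Grin2d* among the GluN2 genes, with *Gabrd* at 81.6% and 79.4% in cortex and 15.2% and 14.4% in SCN.

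Shares of transcripts of the same gene were compared between tissues. Of 36 subunits with more than 1 transcript in the files, 31 had at least 100 estimated counts in every brain library. Of these, 12 had a transcript whose share of the gene's TPM lay more than 10 percentage points apart between the tissues. Both SCN libraries had to lie on the same side of both cortex libraries by that margin. The 12 made up 38.7% of the 31 subunits, against 18.8% of the 5878 genes with more than 1 transcript and the same minimum count. The number of transcripts per gene was not matched, and a gene with more of them had more chances to pass. For *Grin1* a transcript of 3813 bases took 21.9% and 15.7% in cortex and 49.6% and 57.9% in SCN, while one of 4290 bases took 25.2% and 26.3% in cortex and 10.1% and 9.2% in SCN. For *Grid1* a transcript of 5748 bases took 43.0% and 46.005% in cortex and 76.3% and 68.8% in SCN, although the gene as a whole was not called. These shares are estimates from reads that several transcripts share, and no test was made on them.

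Genes that supply, anchor or modify these receptors were read from a list of 58, of which 56 were tested. Of these, 10 were higher and 27 lower in SCN, with a median log2 fold change of −0.45 against 0.02 over all genes tested. Of all genes tested, 9.28% were called higher and 11.7% lower. Among genes of GABA and glycine handling, 6 of 10 were higher and none was lower by the edgeR test. *Slc6a11*, the GABA transporter GAT-3 of astrocytes, had 96.0 and 119 TPM in cortex and 496 and 532 TPM in SCN (2.27, SE 0.096). *Gad2*, which encodes a GABA-synthesizing enzyme, had 129 and 141 TPM in cortex and 264 and 290 TPM in SCN, and *Slc32a1*, the vesicular GABA transporter, 52.7 and 47.0 TPM in cortex and 119 and 131 TPM in SCN. For vesicular glutamate transport the main gene differed, with *Slc17a7* at 767 and 669 TPM in cortex and 8.61 and 3.66 TPM in SCN (−6.77, SE 0.18), and *Slc17a6* at 14.9 and 21.0 TPM in cortex and 85.5 and 105 TPM in SCN (2.47, SE 0.12).

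Of 13 scaffold genes of excitatory synapses 10 were lower and 0 higher in SCN, among them *Homer1*, which ties group I mGlu receptors to their effectors, with 86.3 and 86.1 TPM in cortex and 10.0 and 12.8 TPM in SCN (log2 fold change −2.94, SE 0.12). Of 11 AMPA receptor auxiliary genes 8 were lower and 2 higher. *Cacng3* had 156 and 153 TPM in cortex and 24.04 and 26.0 TPM in SCN, *Cnih3* 88.03 and 64.2 TPM in cortex and 10.4 and 16.1 TPM in SCN, and *Gsg1l* 48.8 and 26.9 TPM in cortex and 7.34 and 9.54 TPM in SCN. *Cbln1*, a ligand of the delta receptors, rose from 12.2 and 5.803 TPM in cortex to 90.15 and 69.6 TPM in SCN (3.21, SE 0.18). In this ligand group of 3, *Cbln2* was lower and *Cbln4* was not called. Of 6 genes that anchor inhibitory receptors 2 were lower, as was 1 of 3 GABA-B auxiliary genes and 1 of 2 kainate auxiliary genes, and 0 of these were higher. Of 8 genes that make, carry or clear glutamate, 4 were lower and 1, *Slc17a6*, was higher. These counts stand beside 9.28% of all genes tested called higher and 11.7% called lower.

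Markers of some cell types differed between SCN and cortex. Of 9 neuron genes 5 were lower and 0 higher in SCN by the edgeR test, their median log2 fold change was −1.09, and they summed to 7623 and 7751 TPM in cortex and to 4102 and 4667 TPM in SCN. Of the 20 subunits called lower in SCN, 10 lay below the neuron median, among them *Gabra4*, *Gabrb2*, *Gabrd*, *Gabbr2*, *Gria2*, *Gria3*, *Grin2a*, *Grin2c* and *Grm2*. The other 10, which include *Grin1*, *Glrb*, *Gabra5*, *Grm3* and *Grm5*, lay above it, so relative to these neuron genes their sign was positive. Of 3 oligodendrocyte genes 2 were higher in SCN, with sums of 1769 and 2323 TPM in cortex and 3363 and 2912 TPM in SCN, and of 5 astrocyte genes 1 was higher and 1 lower. Of 2 oligodendrocyte precursor genes 1 was higher, and 0 of 5 microglia genes were called in either direction by edgeR. Over all genes tested, 9.28% were called higher and 11.7% lower. The choroid plexus list summed to 1856 and 2520 TPM in cortex and to 176 and 38.5 TPM in SCN. The part of cell makeup, or of neighbouring hypothalamus in the SCN pieces, in the subunit differences was not tested.

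The second comparison asked whether the subunits differed between *duper* and wild-type hamsters. Across the 3 tissues, in a model fitted to all 6 libraries, no subunit passed the test. Of 18275 genes tested, 0% were called higher and 0.00547% lower in *duper* by edgeR's quasi-likelihood test, and 606 had an unadjusted p under 0.05. Of the 50 subunits 45 were tested and 0 were called, and 1 had an unadjusted p under 0.05. Their log2 fold changes of *duper* minus wild type lay between −0.38 for *Grin2c* and 0.44 for *Glra3*, with a median of 0.04 against 0.01 over all genes tested. The 1 subunit was *Grin3a*, with 20.5 and 28.4 TPM in wild-type and *duper* cortex and 25.5 and 32.2 TPM in SCN (0.40, SE 0.12, adjusted p = 0.998 from edgeR). DESeq2 called 42 genes and 0 subunits, and 0 subunits were called under any of 16 other settings. Of the 56 associated genes tested, 0 were called by edgeR. The tissues stand in for replicates in this test although they came from the same hamsters. Liver, where the subunits were near absent, also entered these log2 fold changes. *Glra3* had 0 and 7 counts in the wild-type and *duper* liver. *Gabbr1* was −0.16 in this fit, whereas its log2 ratio of TPM + 1 was 0.13 in cortex and 0.09 in SCN.

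Within a tissue each genotype had 1 library, so the log2 ratio of TPM + 1 is described with no test. Its 95% interval covers counting error only, refers to the ratio without the added 1, and treats estimated counts as counts. In cortex, 8.24% of 18096 genes of at least 1 TPM on average lay more than 0.58 above 0 and 7.75% more than 0.58 below. Of 44 subunits 0 did, and they ranged from −0.44 to 0.57 with a median of 0.05 (0.02 over all genes). With 0.1 in place of the added 1, 1 subunit did, *Gabrg1* at 0.60. *Gabrg1* was highest, at 15.3 TPM for wild type against 23.2 TPM for *duper* (0.57, 95% interval 0.33 to 0.87). *Grm8* followed, at 16.1 and 23.6 TPM (0.52, 0.29 to 0.81), then *Grin3a* (0.45, 0.31 to 0.63). At the other end *Grik5* stood at 99.7 and 73.1 TPM in wild type and *duper* (−0.44, −0.56 to −0.34) and *Grid1* 35.5 and 27.0 TPM (−0.38, −0.56 to −0.22). The 6 striatum genes, which mark tissue next to cortex, summed to 378 TPM in the wild-type and 141 TPM in the *duper* cortex, and the part of this in the subunit ratios was not tested.

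In SCN, 6.67% of 18305 genes lay more than 0.58 above 0 and 7.7% more than 0.58 below. Of 46 subunits 3 were above and 0 below, a share close to that of all genes for those above. *Grm4* stood at 4.66 and 8.585 TPM in wild type and *duper*, from 278 and 124 counts (log2 ratio 0.76, 95% interval 0.57 to 1.19). *Grin3b* had 0.845 and 2.10 TPM, from 39 and 23 counts (0.75, 0.50 to 2.09). *Grm7* had 22.0 and 33.8 TPM (0.60, 0.45 to 0.78), and its ratio was 0.49 on TMM-normalized CPM, a library-scaled count. *Glra2*, with 21.4 and 28.3 TPM, followed (0.39, 0.22 to 0.59). *Gabrr1* was lowest (−0.44, −1.66 to 0.15), from 89 and 13 counts, and lay past the threshold with 0.1 in place of the added 1 (−0.63). In cortex *Grm4* and *Grin3b* leaned the other way with intervals that included 0 (−0.21, −0.57 to 0.10, and −0.20, −1.40 to 0.76), and *Grm7* was at 0.05.

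The bulk of the subunits in SCN lay slightly above 0: 38 of 46 had a positive log2 ratio, against 53.3% of all genes, and the median was 0.11 against 0.02 over all genes. The counting interval lay above 0 for 22 of 46 subunits, against 18.4% of all genes, and below 0 for 1, *Grm3*, against 13.2%. In cortex 27 of 44 were positive, with the interval above 0 for 13, against 15.9% of all genes, and below 0 for 7, against 11.6%. The width of these intervals depends on the counts of each gene. The neuron genes moved the same way in SCN, where all 9 had a positive ratio (0.12 to 0.47, median 0.19) and 5 of 9 did in cortex (median 0.03). The wild-type SCN library held more RNA of the SCN marker list, 83.9 TPM against 49.2 TPM in *duper*, and of neighbouring hypothalamus, 68.9 TPM against 21.7 TPM, of which *Pmch* was 58.2 and 11.4 TPM. The part of these differences in the small positive ratios was not tested. The plot of genotype ratios shows the cortex points scattered on either side of 0 and the SCN points mostly to its right.

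**Figure D4:**
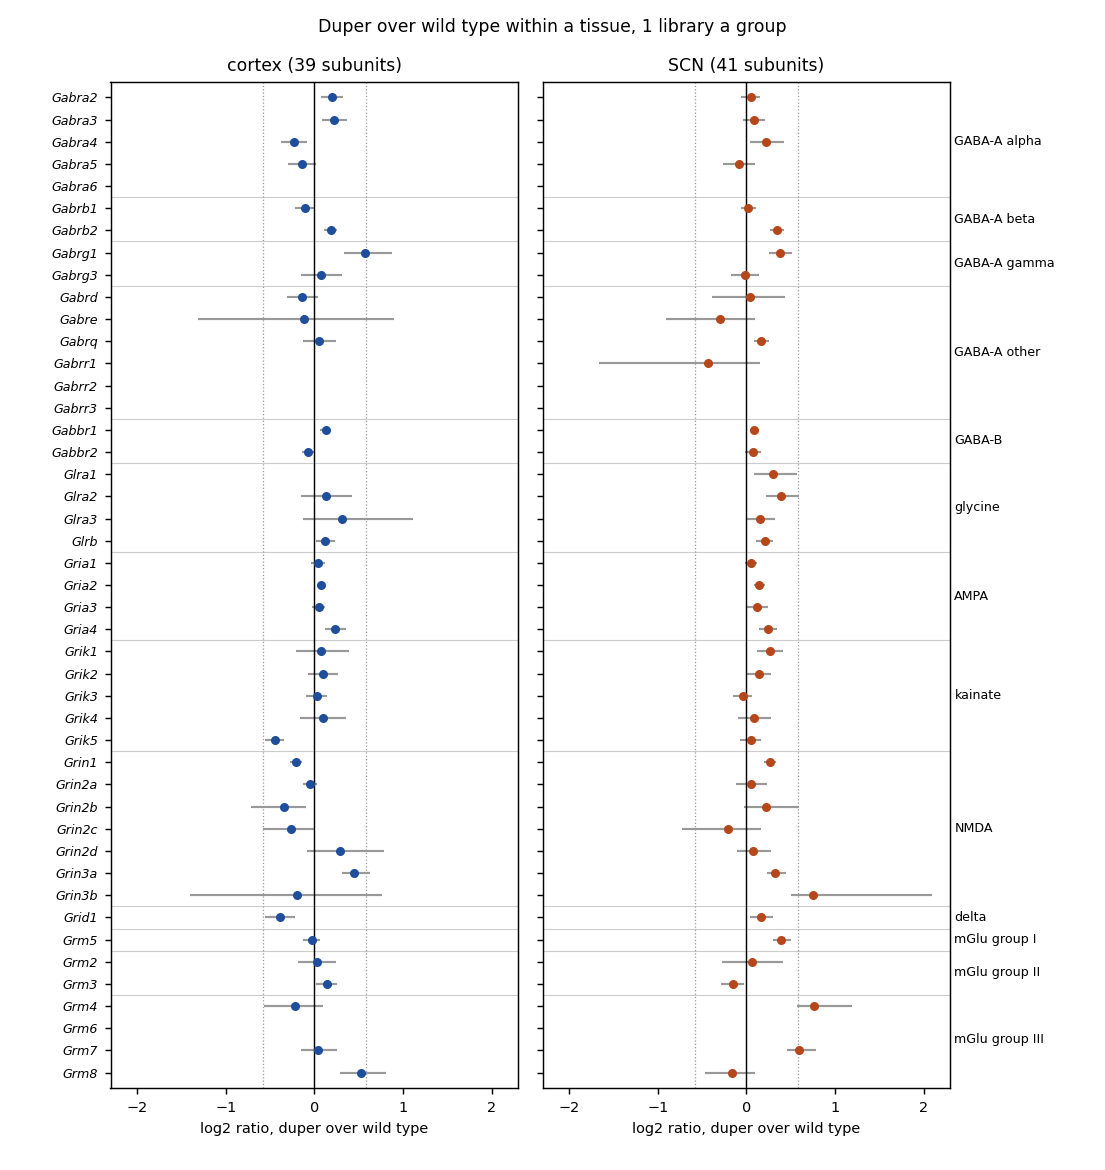
Log2 ratio of *duper* over wild type, as TPM + 1, for subunits of at least 1 TPM on average in cortex (39 shown, left) and SCN (41 shown, right); each point compares 1 library with 1 library. Grey lines are 95% intervals that cover counting error only, for the ratio without the added 1, and dotted lines mark 0.58 on either side of 0; 0 of the subunits shown in cortex and 3 in SCN lie beyond them.

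In liver the subunits were near absent. *Gabbr1* stood at 1.81 TPM for wild type and 0.731 TPM for *duper*, from 252 and 155 counts. It was the only subunit with a mean of at least 1 TPM, and its ratio without the added 1 was 0.405 (95% interval −1.60 to −1.01 on the log2 scale). All other subunits lay under 1 TPM in both liver libraries, with *Gabra2* at 0.609 and 0.399 TPM and *Gabrg1* at 0.566 and 0.509 TPM among the highest.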

How the data were processed

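The authors assigned reads to transcripts of the Syrian hamster reference with Kallisto (version not given in the sources used here), summed them per gene with tximport, and deposited estimated counts and TPM per gene, and the same per transcript. Symbols of 31590 of 31593 genes matched the annotation of BCM_Maur_2.0, which was used for names and for neighbouring genes. From the deposited estimated counts, rounded, SCN was compared with cortex over 4 libraries and *duper* with wild type over 6, using edgeR 4.0.16 in R 4.3.3 (TMM, filterByExpr, quasi-likelihood F test). Standard errors are the size of the log2 fold change divided by the root of F. Intervals (Clopper-Pearson, 95%, scipy 1.17.1) cover counting error only. Within a tissue and genotype there was no replicate. Steps were tested on simulated data. Alternatives used DESeq2 1.42.0, limma 3.58.1, other scalings and filters, and libraries left out.

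The receptor list, the associated genes and the markers were chosen with earlier results of these data known. Named genes were the 2 leading members of each family by mean brain TPM, up to 25 subunits called in SCN against cortex, any called by genotype, the 5 largest ratios of *duper* over wild type in cortex and in SCN, and the 8 largest called associated genes. Others were named after their values were seen. Values of 5 subunits are not reported here; they remain in the counts.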

Additional observations from a re-analysis of the deposited data

Results flagged for a closer look

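Several subunits had log2 ratios whose counting intervals lay on opposite sides of 0 in the groups compared. With 1 library per genotype and tissue the difference between the ratios was not tested, and 50 subunits were searched for such a pattern. The share of all genes with this pattern was not computed. For *duper* over wild type in cortex the interval lay above 0 for 15.9% of all genes and below 0 for 11.6%. In SCN these shares were 18.4% and 13.2%.

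For *duper* over wild type, *Grin1* was −0.20 in cortex and 0.26 in SCN, a difference of 0.46. *Gabra4* was −0.23 in cortex and 0.22 in SCN, a difference of 0.44. *Grid1* was −0.38 in cortex and 0.17 in SCN, a difference of 0.55. Its ratio of SCN over cortex was higher in *duper* than in wild type by the same amount. That is no second observation, since the same values give both differences. *Grm3* went the other way, with 0.14 in cortex and −0.15 in SCN, a difference of −0.29. Beside these ratios, the striatum genes summed to 378 TPM in the wild-type and 141 TPM in the *duper* cortex, and the neuron genes to 4102 TPM in the wild-type and 4667 TPM in the *duper* SCN.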

How the results depend on the processing

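Over 16 other fits of SCN against cortex the count of called subunits lay between 22 and 30, and it was 37 with no fold threshold; 20 of the 29 subunits were called in every fit. Subunits called higher lay between 6 and 11, those called lower between 16 and 21, and associated genes called between 29 and 38. Over all genes the count became 2091 with all 6 libraries in the fit, where liver entered the estimate of spread, and 5339 with no fold threshold. Thinning to equal totals was added after seeing the data.

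Measured against the neuron genes, 10 called falls changed sign, including *Gabra5* (0.089), *Glrb* (0.47), *Grik5* (0.32), *Grin1* (0.37), *Grm3* (0.16), *Grm5* (0.20) and *Grm8* (0.17). Subunits that were not called and lay near 0 also changed sign. *Gabbr1* was 0.13 under scaling by library size and −0.10 to 0.014 with 1 library left out. *Grid1* was −0.011 with length offsets, −0.0071 and −0.0070 with limma on log2(TPM + 1) and log2(TPM + 0.1), −0.023 after thinning and −0.15 to 0.20 with 1 library left out. With 1 library left out *Grik2* was −0.016 to 0.054 and *Grm7* −0.47 to 0.035. The cause was not tested.

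For *duper* against wild type the 1 gene called became 42 with DESeq2, 91 with the likelihood ratio test, 48 with no filter, 22 with brain libraries alone, 2 with robust estimation, 2 with limma on log2(TPM + 1), and 0 to 42 with 1 library left out. No subunit was among them. Uncalled subunits changed sign: *Grik5* was 0.11 with DESeq2, 0.039 with the likelihood ratio test and 0.020 with limma on log2(TPM + 0.1), and *Grm8* was −0.0041 with DESeq2, −0.0018 with length offsets and −0.040 with limma on log2(TPM + 0.1). Leaving out 1 library in effect left out its whole tissue, because the tissue term then took up the other library. In such fits *Grid1* was −0.26 to 0.13, *Grik5* −0.23 to 0.36, *Grin3b* −0.11 to 0.64, *Grm4* −0.24 to 0.88, *Grm7* −0.018 to 0.49 and *Grm8* −0.39 to 0.20.

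Shares computed from counts in place of TPM kept the direction of SCN against cortex for the 21 leading subunits examined, except *Grin1* in wild type. The shares of *Grin2a* and *Grin2d* among the GluN2 genes kept their direction too. The genotype term paired the cortex and SCN pools of the same hamsters, and without it 29 subunits were called, as with it. For *duper* over wild type within a tissue, with 0.1 in place of the added 1 the subunits past the fold threshold in cortex became 1, from 0. Depth limits the subunits with few counts, such as *Gabrr1*, *Gabre* and *Grin3b*.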
